A study of Mus musculus with 6 samples.

Results

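Phagocytosis by astrocytes was examined through 10 genes, chosen by name: the receptor tyrosine kinases Mertk, Axl and Tyro3, their ligands Gas6 and Pros1, the receptor Megf10 with its adaptor Gulp1, the secreted bridging protein Mfge8, and Elmo1 and Dock1, which act on Rac. Each name matched 1 of the 43383 rows of the deposited table, so all 10 genes were found. The cells were GFP-positive astrocytes, sorted from somatosensory cortex. The mice were males aged 4 weeks that carried Aldh1l1-eGFP, in which the Aldh1l1 promoter marks astrocytes, and this transgene was common to upper-layer astrocytes (ULAs) and deep-layer astrocytes (DLAs). ULAs came from layers II–IV and DLAs from layers V and VI, with the meninges, layer I, the corpus callosum and parts of layers IV and V discarded. Each of 3 brains gave 1 library per layer, and no mice were treated. Values are RPKM, that is, reads scaled to mRNA length and to the mapped reads of a library (19.7 M to 29.6 M reads), so that levels of different genes can be set side by side.

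Dying cells and weak synapses expose phosphatidylserine, a lipid normally kept on the inner face of the plasma membrane, and phagocytes recognize it directly or through soluble bridging proteins. Gas6 and protein S (the product of Pros1) link phosphatidylserine to the TAM receptors, named after Tyro3, Axl and Mertk, whereas Mfge8 links it to integrins of the alpha v class. In the developing brain, Mertk and Megf10 are known as receptors through which astrocytes take up synapses. Gulp1 binds the cytoplasmic tail of Megf10, and Elmo1 with Dock1 forms an exchange factor that loads Rac1 with GTP and so drives the membrane around the cargo.

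The 10 genes spanned a wide range of mRNA levels. Mfge8 was the most abundant, at 3219.25 to 4822.3 RPKM over the 6 libraries, and ranked 9 among all rows by mean RPKM. Mertk followed at 151.35 to 262.41 RPKM (rank 309). Axl (34.78 to 56.06) and Gas6 (35.49 to 46.59) came next, with ranges that overlapped and Axl the higher in 4 of 6 libraries. Dock1 (22.11 to 34.63) and Gulp1 (20.95 to 30.66) also overlapped, Dock1 being the higher in 4 of 6 libraries. Megf10 (12.35 to 18.81), Pros1 (9.26 to 10.88), Tyro3 (3.06 to 6.65) and Elmo1 (0.04 to 0.4) completed the order, and every other pair of neighbours had ranges that did not overlap. The order is a description, since levels of different genes come from the same libraries.

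**Figure D1:**
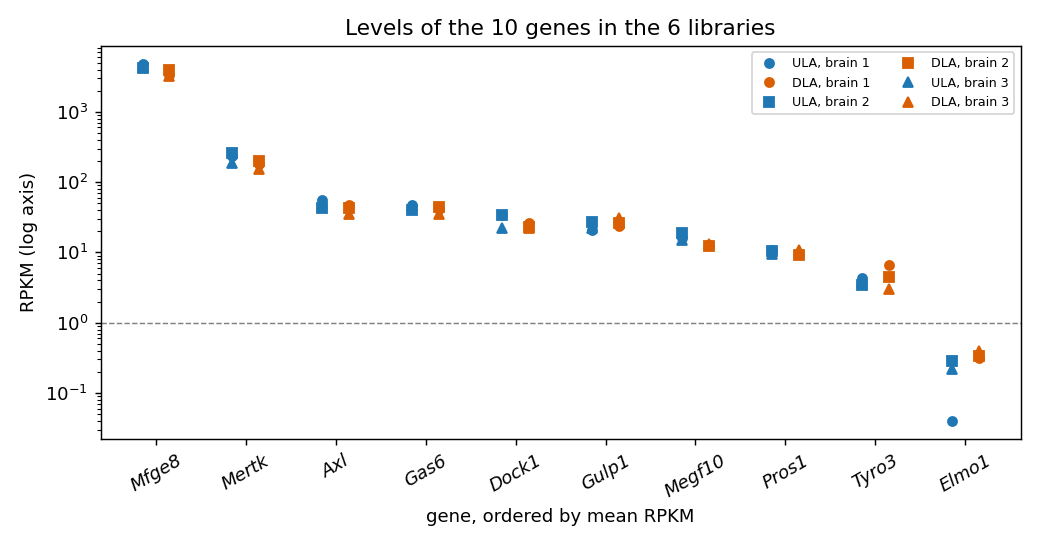
RPKM (log axis) of the 10 genes in each of the 6 libraries, with ULAs in blue, DLAs in orange, 1 symbol per brain and a dashed line at 1 RPKM. Mfge8 lies at or above 3219.25 RPKM in every library, and Elmo1 lies below 1 RPKM in every library.

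To ask whether this machinery differs between the layers, limma was fitted to log2(RPKM + 1) of the 13999 rows that averaged 1 RPKM or more, with brain as a block and Benjamini-Hochberg adjustment over all of these rows. Elmo1 was under this level, so 9 of the 10 genes were tested. None of the 9 passed an adjusted p-value under 0.05, where 1.63% of all rows passed (0.714% towards ULAs and 0.914% towards DLAs). Before adjustment, 4 of the 9 genes (Mertk, Mfge8, Megf10 and Dock1) had a p-value under 0.05, all with ULAs higher, where 16.4% of all rows did so in either direction and 5.64% with ULAs higher. This count was 0 without brain 1, 2 without brain as a block (Mfge8 and Megf10) and 2 after a correction for mRNA length (Mertk and Mfge8). Of all rows, 2295 had such a p-value in the fit above. The numbers were 1087 without brain 1, 1409 without the block and 2029 after this correction. ULA values exceeded DLA values in 3 of 3 brains for 5 of the 9 genes (those 4 and Axl), against 15.2% of all rows. The log2 fold change (ULA minus DLA) was above 0 for 7 of the 9 genes and for 45.0% of all rows. Its median over the 9 genes was 0.24, from −0.19 to 0.37, and that of all rows was −0.03. The genes were listed with earlier results of these libraries known, and Mertk is among the genes the study itself picked from them as higher in ULAs, so these counts are no independent evidence of a direction. With 3 brains, 0.25 is the smallest p-value of an exact paired permutation test.

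**Figure D2:**
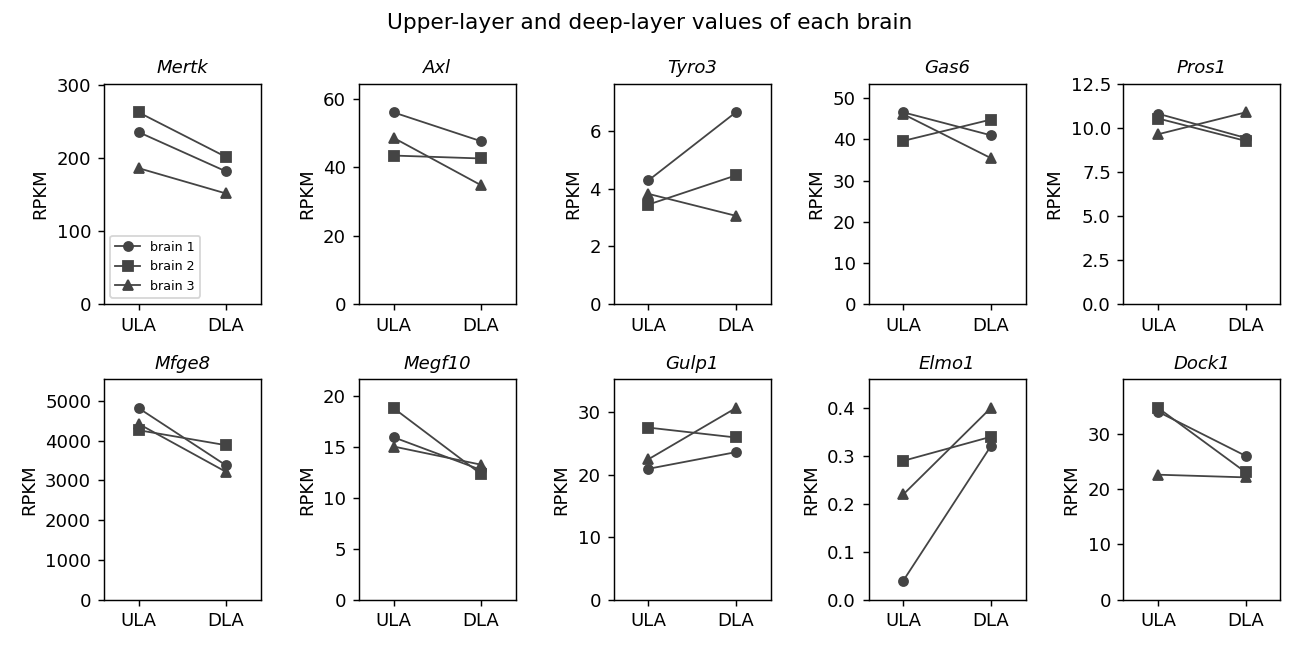
RPKM of each gene in ULAs and DLAs, with a line joining the 2 libraries of each brain and every axis starting at 0. The lines of Mertk, Axl, Mfge8, Megf10 and Dock1 descend from ULA to DLA in all 3 brains, those of Elmo1 ascend in all 3, and the other panels hold lines of both directions.

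Mertk, the TAM receptor best known in astrocytes, was the most abundant of the receptors. Its row has 19 exons at chr2:128524733-128627924 of mm9. Its RPKM was 235.33, 262.41 and 185.96 in the ULAs of brains 1, 2 and 3 and 181.61, 201.44 and 151.35 in the DLAs of the same brains. The layers overlapped across brains, as the ULA value of brain 3 lay below the DLA value of brain 2. Within brains the ULA/DLA ratio was 1.3, 1.3 and 1.23, or 1.28 ± 0.0409 (SD, n = 3). The log2 fold change was 0.35 (SE 0.09, 95% interval 0.15 to 0.55, adjusted p = 0.0986, limma). Its adjusted p was 0.042 after quantile normalization, 0.0409 when brain 3 was left out and 0.717 when brain 1 was left out. Between 14108 and 23881 reads stood behind each value, so counting error was small beside the spread between brains.

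Axl, a TAM receptor that binds Gas6 and is induced in inflamed tissue, lies at chr7:26541519-26573752 of mm9, with 20 exons. It was measured at 56.06, 43.42 and 48.61 RPKM in ULAs and at 47.64, 42.57 and 34.78 RPKM in DLAs. ULAs were higher in each brain, by little in brain 2 (ratio 1.02) and more in brain 3 (ratio 1.4), and the layers overlapped. For Axl, the log2 fold change was 0.24 (95% interval −0.01 to 0.5, adjusted p = 0.322, limma), and 0.15 after the correction for mRNA length. It was 0.35 without brain 2 and 0.13 without brain 3.

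Tyro3, the TAM receptor usually linked to neurons, was the least abundant of the 3, at 4.29, 3.45 and 3.82 RPKM in ULAs and 6.65, 4.46 and 3.06 RPKM in DLAs. Its row is at chr2:119625250-119643839 of mm9 and has 19 exons. Brains 1 and 2 were higher in DLAs and brain 3 in ULAs, and the DLA values varied more (4.72 ± 1.81) than the ULA values (3.85 ± 0.421). The log2 fold change of −0.19 had a 95% interval of −0.57 to 0.18 (adjusted p = 0.607, limma), so a difference of up to 1.13-fold towards ULAs or 0.675-fold towards DLAs lay inside it. It was −0.02 without brain 1 and −0.41 without brain 3 (adjusted p = 0.154).

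Mertk made up 79.6%, 84.8% and 78.0% of the summed RPKM of the TAM receptors in ULAs and 77.0%, 81.1% and 80.0% in DLAs. Axl supplied 14.0% to 20.4% and Tyro3 1.12% to 2.82%. The ULA share of Mertk was higher in 2 of 3 brains, by 1.46 percentage points on average (SD of the within-brain differences 3.05, n = 3), which an exact 2-sided permutation test over the brains did not separate from 0 (p = 0.5, the smallest possible being 0.25). The receptors summed to 295.7, 309.3 and 238.4 RPKM in ULAs and 235.9, 248.5 and 189.2 RPKM in DLAs.

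The receptors with the highest and the lowest level among the TAM family, and Mfge8 as the most abundant gene, are shown with the 250 bases before their RefSeq starts (GRCm38.p6), to set promoters of genes with very different levels side by side. Nothing was measured at the promoters here. Capitals mark GC boxes (GGGCGG on either strand), which occurred 3 times for Mertk, 3 times for Tyro3 and 4 times for Mfge8, and in 32.7% of all 32851 promoter windows of this length at least once. None of the 3 windows held a TATA box (TATAAA, either strand), a motif in 12.4% of all windows. CpG dinucleotides numbered 7 for Mertk, 24 for Tyro3 and 12 for Mfge8, with a median of 6.0 over all windows.
Mertk, chr2:128698665-128698914, plus strand: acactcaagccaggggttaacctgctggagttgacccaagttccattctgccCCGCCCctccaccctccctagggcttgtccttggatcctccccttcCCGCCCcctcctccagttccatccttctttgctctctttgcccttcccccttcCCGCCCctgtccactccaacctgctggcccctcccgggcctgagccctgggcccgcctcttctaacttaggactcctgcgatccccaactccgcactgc
Tyro3, chr2:119799264-119799513, plus strand: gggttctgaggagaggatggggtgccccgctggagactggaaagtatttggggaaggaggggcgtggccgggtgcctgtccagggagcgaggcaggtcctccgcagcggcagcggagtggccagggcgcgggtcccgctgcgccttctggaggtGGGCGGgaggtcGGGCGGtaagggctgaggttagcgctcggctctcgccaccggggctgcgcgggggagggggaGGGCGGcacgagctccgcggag
Mfge8, chr7:79149061-79149310, minus strand: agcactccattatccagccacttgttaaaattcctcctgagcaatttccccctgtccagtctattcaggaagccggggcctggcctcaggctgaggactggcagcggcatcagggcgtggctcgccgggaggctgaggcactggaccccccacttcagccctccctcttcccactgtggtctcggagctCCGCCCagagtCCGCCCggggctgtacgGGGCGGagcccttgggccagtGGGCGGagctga

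Among the bridging proteins, Mfge8 had the highest level and the largest layer difference. The gene has 10 exons at chr7:86278654-86293946 of mm9, and the RPKM of its row was 4822.3, 4266.39 and 4425.76 in ULAs and 3383.59, 3889.42 and 3219.25 in DLAs. Every ULA value lay above every DLA value. This separation, with ULAs higher, was seen for 2 of the 9 tested genes (Mfge8 and Megf10) and for 6.59% of all rows. DLAs lay above ULAs in this way for 0 of the 9, against 9.27% of all rows. Mfge8 had a log2 fold change of 0.37 (SE 0.11, 95% interval 0.13 to 0.6, adjusted p = 0.131, limma). Brain 2 differed least, with a ratio of 1.1 against 1.43 and 1.37, and without it the gene passed (log2 fold change 0.49, adjusted p = 0.0113), whereas without brain 1 it did not (0.30, adjusted p = 0.892). Mfge8 supplied 90.6% to 92.6% of the summed RPKM of the 10 genes in each library.

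Gas6, the ligand that binds all TAM receptors, lies at chr8:13465374-13494535 of mm9 and was at 46.59, 39.66 and 46.14 RPKM in ULAs and 41.03, 44.82 and 35.49 RPKM in DLAs. Brains 1 and 3 were higher in ULAs and brain 2 in DLAs. Its log2 fold change was 0.13 (95% interval −0.14 to 0.4, adjusted p = 0.65, limma), and it was 0.27 without brain 2 and 0.00 without brain 3. Pros1, which encodes protein S, a ligand of Mertk and Tyro3 and a cofactor in blood clotting, lies at chr16:62854160-62929166 of mm9. It had 10.8, 10.53 and 9.64 RPKM in ULAs and 9.43, 9.26 and 10.88 RPKM in DLAs, which overlapped (log2 fold change 0.06, 95% interval −0.22 to 0.34, adjusted p = 0.849, limma). The log2 fold change of Pros1 was 0.00 without brain 1, 0.01 without brain 2 and 0.17 without brain 3. Gas6 exceeded Pros1 by 3.26-fold to 4.84-fold in each library.

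Megf10, a receptor with repeated EGF-like domains on chromosome 18 (25 exons), had 15.95, 18.81 and 15.04 RPKM in ULAs and 12.75, 12.35 and 13.26 RPKM in DLAs. The layers did not overlap, and the DLA values were close together (12.8 ± 0.456, against 16.6 ± 1.97 in ULAs). Its log2 fold change was 0.35 (SE 0.12, 95% interval 0.07 to 0.62, adjusted p = 0.202, limma), and it was 0.22 after the correction for mRNA length. The adjusted p-value of Megf10 stayed above 0.05 in all alternative settings, the lowest being 0.0588 without brain 3.

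Gulp1, the adaptor whose phosphotyrosine-binding domain contacts Megf10 and the receptor Lrp1, lies at chr1:44608516-44853681 of mm9, with 11 exons. It did not share the direction of Megf10, with 20.95, 27.54 and 22.48 RPKM in ULAs and 23.61, 25.96 and 30.66 RPKM in DLAs. DLAs were higher in brains 1 and 3 and lower in brain 2 (log2 fold change −0.17, 95% interval −0.45 to 0.1, adjusted p = 0.521, limma). Without brain 2 the value was −0.30 (adjusted p = 0.318), and without brain 3 it was −0.04. The ratio of Gulp1 to Megf10 RPKM was 1.31, 1.46 and 1.49 in ULAs and 1.85, 2.1 and 2.31 in DLAs. The ratios of the layers did not overlap, but this pair was picked after its values were seen and was not tested.

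**Figure D3:**
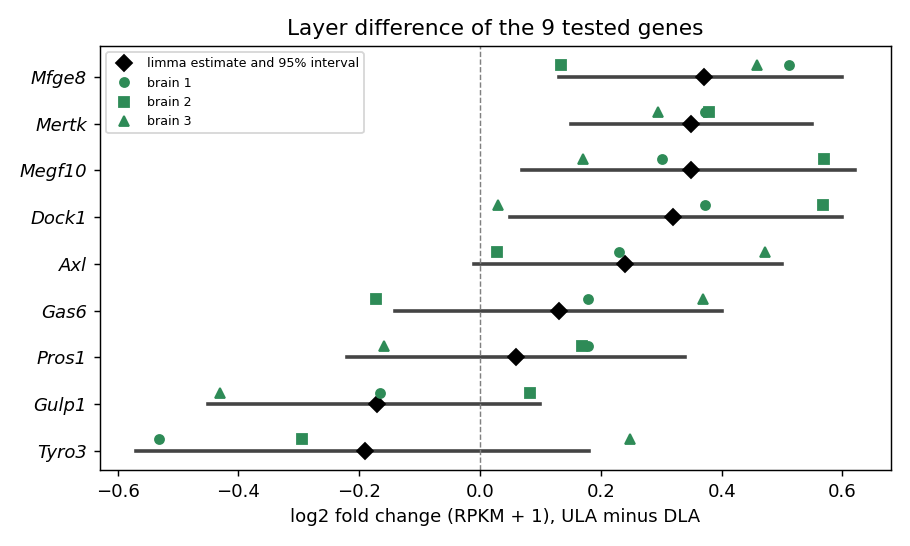
Log2 fold change (ULA minus DLA, on the log2(RPKM + 1) scale) of the 9 tested genes, with the limma estimate (diamond), its 95% interval (bar) and the difference of each brain (green symbols). The intervals of Mfge8, Mertk, Megf10 and Dock1 lie above 0, and those of the other 5 genes include 0.

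Of the exchange factor for Rac, only the Dock1 part was well detected. Dock1, which carries the catalytic domain, has 52 exons at chr7:141862370-142365330 of mm9 and was at 33.95, 34.63 and 22.59 RPKM in ULAs and 26, 23.04 and 22.11 RPKM in DLAs. The ULA/DLA ratio was 1.31 and 1.5 in brains 1 and 2 and 1.02 in brain 3, whose ULA value fell among the DLA values. Over the brains, its log2 fold change was 0.32 (SE 0.12, 95% interval 0.05 to 0.6, adjusted p = 0.24, limma). Without brain 3 the gene passed (log2 fold change 0.47, adjusted p = 0.0222), whereas the adjusted p was 0.825 without brain 1, and the value was 0.20 without brain 2 and 0.20 after the correction for mRNA length.

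Elmo1, the partner that brings Dock1 to the membrane, lies at chr13:20182376-20700222 of mm9 and was at 0.04, 0.29 and 0.22 RPKM in ULAs and 0.32, 0.34 and 0.4 RPKM in DLAs. These values rest on 5, 41 and 33 reads in ULAs and 47, 37 and 66 reads in DLAs. DLAs were higher in 3 of 3 brains and the layers did not overlap, but with every row above 0 tested the log2 fold change was −0.20 (adjusted p = 0.499, limma), a scale that understates changes at such low levels. In the annotation of GENCODE (GRCm38), 403 exon bases of Elmo1 are shared with an antisense gene, and the library kit does not mark strand, so reads of the 2 genes cannot be told apart there. Its paralog Elmo2 was the abundant member of the family, at 85.73, 86.55 and 90.89 RPKM in ULAs and 116.64, 113.74 and 86.54 RPKM in DLAs (log2 fold change −0.25, adjusted p = 0.322, and −0.41 with adjusted p = 0.0256 without brain 3, limma). Elmo3 was measured at 1.03 to 1.13 RPKM in ULAs and 0.63 to 0.78 RPKM in DLAs and was under the level for testing.

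The pattern of Mertk over the 6 libraries was compared with that of the 8267 other tested RefSeq rows whose profile had an SD of at least 0.5 times that of Mertk, by the root mean square distance between log2 profiles, each centred on its own mean. The nearest were Swap70 (distance 0.0425), a protein that binds F-actin and signals to Rac, Csrnp1 (0.0474), Ss18l1 (0.0603), Grhl1 (0.0669) and Csmd1 (0.0675). Swap70 was at 36.73, 42.34 and 31.17 RPKM in ULAs and 29.22, 31.54 and 22.94 RPKM in DLAs, so it shared the low values of brain 3 in both layers. Among the phagocytosis genes, Dock1 was nearest to Mertk (0.131, position 75), followed by Megf10 (0.166, position 347) and Mfge8 (0.169, position 365). Axl was at position 1247, Gas6 at 1443, Gulp1 at 4580 and Tyro3 at 5643 (distance 0.39). Pros1, whose profile varied too little, and Elmo1, which was not tested, were not ranked. The likeness rests on 6 libraries of 3 brains and carries no test.

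The wider pathway was followed with 106 genes in 5 lists written from general knowledge. Of the 70 that could be tested, 0 passed an adjusted p-value under 0.05 with ULAs higher and 1 with DLAs higher (limma). Of all rows, 1.63% passed. An unadjusted p-value under 0.05 was seen for 12 of the 70 and for 16.4% of all rows. Their median log2 fold change was 0.01. Phosphatidylserine and scavenger receptors were mostly silent, with 12 of 19 under 1 RPKM in every library and 0 of 6 tested genes past the threshold (median 0.06). The most abundant were the integrin chains Itgb1 (35.56, 32.81 and 30.07 RPKM in ULAs against 27.3, 25.95 and 25.53 in DLAs, log2 fold change 0.31, adjusted p = 0.185, limma) and Itgav, which pairs with beta chains to bind Mfge8 (22.06, 17.13 and 17.69 RPKM against 18.24, 12.63 and 18.7, log2 fold change 0.20). The log2 fold change of Itgav was 0.09 without brain 2, 0.34 without brain 3 and 0.08 after the correction for mRNA length. Itgb5, a partner of Itgav, had 11.9 ± 1.16 and 12.2 ± 2.52 RPKM, while Itgb3 stayed at or below 0.03 RPKM in every library. Itgb3 and Itgb5 were singled out after their values were seen.

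Other soluble ligands were either very abundant or near 0. Of 18 genes, 13 were under 1 RPKM in all libraries, among them the complement genes C1qa, C1qb, C1qc and C4b, and 0 of the 5 tested passed (median 0.12). Apoe, the lipoprotein that also coats debris, averaged 13027.5 ± 1260.0 RPKM (SD, n = 3) in ULAs against 11950.3 ± 2080.0 (log2 fold change 0.13, adjusted p = 0.645, and 0.32 with adjusted p = 0.0489 without brain 2, limma). Clu, or clusterin, averaged 6460.5 ± 302.0 and 5935.7 ± 528.0 RPKM (log2 fold change 0.12, adjusted p = 0.598). The value of Clu was 0.03 without brain 1, 0.23 without brain 2 and 0.04 under quantile normalization. That of Apoe was 0.03 without brain 1. In the list of lipid exposure and inhibitory signals, 0 of 10 tested genes passed (median 0.10). Its most abundant genes were Cd47, a signal that restrains phagocytosis (235.0 ± 11.6 against 248.0 ± 17.5 RPKM), and its receptor Sirpa (106.0 ± 11.7 against 97.0 ± 8.57 RPKM), with log2 fold changes of −0.08 and 0.13. The sign for Cd47 turned under quantile normalization.

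Among 28 genes of engulfment signalling, 0 of 23 tested passed (median 0.03). Dock4, a relative of Dock1 with a higher mean level, was at 41.53, 48.79 and 34.76 RPKM in ULAs and 43.65, 34.74 and 37.66 RPKM in DLAs (log2 fold change 0.10, adjusted p = 0.754, limma), and its sign turned without brain 2 and after the correction for mRNA length. Rac1, the target of Elmo and Dock proteins and singled out after its values were seen, had 15.71, 8.65 and 17.61 RPKM in ULAs and 53.08, 8.0 and 43.94 RPKM in DLAs (log2 fold change −0.96, adjusted p = 0.117), which became −1.48 (adjusted p = 0.000944) without brain 2 and −0.80 (adjusted p = 0.00658) without brain 3.

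Lamp1, a membrane glycoprotein of late phagosomes and lysosomes, was the only gene of the 5 lists that passed, and it was higher in DLAs. Its RPKM was 272.33, 60.54 and 290.01 in ULAs, against 482.82, 76.02 and 479.18 in DLAs. In limma, this gave a log2 fold change of −0.62 with an SE of 0.11 and an adjusted p of 0.0252. Brain 2 stood far below the others in both layers, at 0.215 and 0.158 of the mean of the other brains. Rac1 in brain 2 was at 0.519 of that mean in ULAs and 0.165 in DLAs. In all, 80 tested rows (0.571%) had both values of brain 2 under 0.5 of every other library. Without brain 2 the log2 fold change of Lamp1 was −0.77 (adjusted p = 0.00289), without the brain in the model its adjusted p was 0.809, and without brain 1 it was 0.183. In the GENCODE annotation (GRCm38), exons of Lamp1 and Rac1 share 249 and 2309 bases with those of Grtp1 and Daglb on the opposite strand, and the part of these in the values was not tested. Lamp2, its relative, singled out after its values were seen, had 158.0 ± 2.26 and 143.0 ± 8.57 RPKM. The lysosomal proteases Ctsd (935.0 ± 48.5 against 910.0 ± 60.8 RPKM) and Ctsb (327.0 ± 12.3 against 321.0 ± 38.1 RPKM) differed by 0.04 and 0.03 on the log2 scale, with signs that turned in 2 settings each. In this list of 28 genes, 1 of 26 tested passed (median −0.06).

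**Figure D4:**
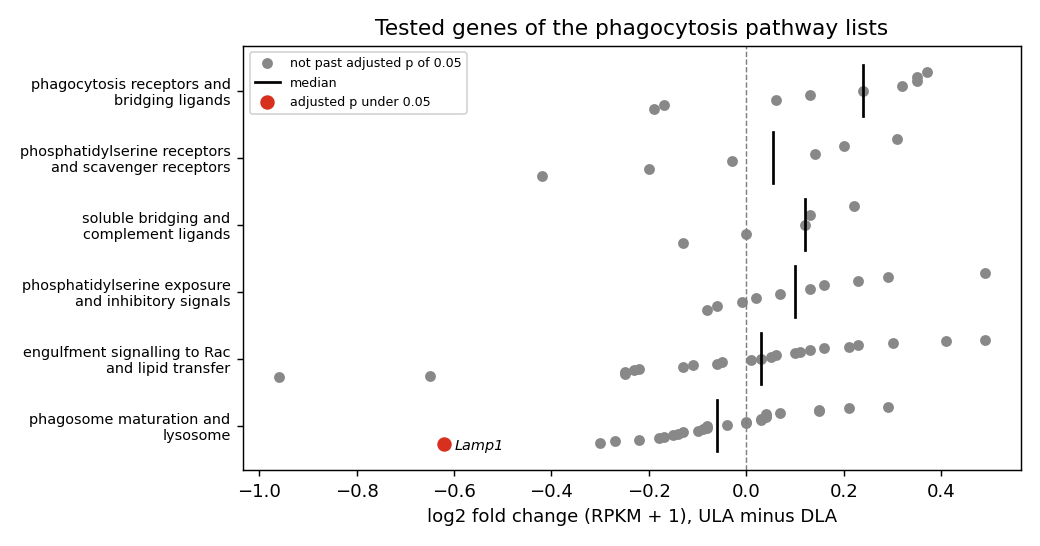
Log2 fold change (ULA minus DLA, log2(RPKM + 1) scale) of every tested gene in the group of phagocytosis receptors and bridging ligands and in the 5 pathway lists, 1 point per gene, with a black bar at the median. Lamp1, in red at −0.62, is the only point with an adjusted p-value under 0.05.

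In sorted bulk samples, fewer cells of a type and less RNA per cell cannot be told apart, and the levels of other cell types were therefore set beside these results. Microglia, which also use TAM receptors, were traced by 14 markers, of which 11 were under 1 RPKM in every library and none was at 0 in all of them. Their summed level was 16.1 to 16.8 RPKM in ULAs and 10.3 to 14.7 RPKM in DLAs, most of it from P2ry12 (11.63 to 12.6 against 7.76 to 10.22 RPKM). This sum was higher in ULAs in 3 of 3 brains. Without P2ry12 it was 4.14, 4.51 and 4.17 RPKM in ULAs and 3.56, 2.51 and 4.5 RPKM in DLAs, so that brain 3 turned. C1qa (2 to 25 reads per library) and Trem2 (0 to 6) were higher in DLAs in every brain. Tmem119 (2 to 12 reads) was higher in ULAs in every brain. The part of these markers in the values of Mertk, Axl, Gas6 and Elmo1 was not tested. Oligodendrocyte markers summed to 90.2 to 190.2 RPKM in ULAs and 185.1 to 300.8 RPKM in DLAs. Of 10 tested markers, 8 passed the threshold with DLAs higher. The part of oligodendrocyte markers in the values of Gulp1, Elmo1, Elmo2 and Lamp1 was not tested. The 11 astrocyte markers summed to 11590.2 to 12552.2 RPKM in ULAs and 10990.8 to 11827.7 RPKM in DLAs, of which Gfap was higher in DLAs and the other markers did not pass. Of 8 markers of oligodendrocyte precursors, 6 were under 1 RPKM in every library, Pdgfra among them, and the sum (85.4 to 96.9 RPKM in ULAs, 97.3 to 134.0 RPKM in DLAs) was mostly Olig1. Pericytes and smooth muscle cells were traced by 7 markers, mainly Pdgfrb, at 12.21 to 19.84 RPKM in ULAs and 10.31 to 16.91 RPKM in DLAs. The sum of these markers was 16.1 to 23.1 RPKM in ULAs and overlapped that of DLAs. ULAs had the higher sum in brains 1 and 3, and DLAs in brain 2 (16.5 against 16.1 RPKM). The marker Rgs5 was higher in ULAs (1.98 to 2.7 against 0.75 to 1.01 RPKM, log2 fold change 0.77, adjusted p = 0.0455, limma). Near the floor, Vtn (0 to 8 reads per library) was higher in DLAs and Myh11 (2 to 14) in ULAs, each without overlap. The part of pericyte and smooth muscle markers, Rgs5 among them, in the values of Mertk, Mfge8, Megf10 and Dock1 was not tested. Meningeal fibroblast markers summed to 3.1 to 4.1 RPKM in ULAs and 5.0 to 6.3 RPKM in DLAs without overlap, most of it from Col1a1, while Col3a1 and Slc6a13 were listed at 0 in every library. Neuronal markers summed to 9.0 to 9.5 RPKM in ULAs and 6.7 to 9.1 RPKM in DLAs, with ULAs higher in brains 1 and 3. Endothelial markers summed to 1.1 to 2.0 RPKM in ULAs and 0.8 to 4.2 RPKM in DLAs. Blood cell markers summed to 0.9 to 1.8 RPKM in ULAs and 15.4 to 76.7 RPKM in DLAs. Hbb-b1 and Hbb-b2 share 606 exon bases, so the same reads may count for both, and without Hbb-b2 the DLA sums were 13.39, 13.62 and 61.14 RPKM.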

How the data were processed

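RNA of FACS-sorted ULAs and DLAs from 3 brains was amplified (SMART-Seq v4), tagged (Nextera XT) and sequenced from 1 end for 36 bases. The authors deposited RPKM values, cut to 2 decimals, for 43383 rows with the mRNA length of each. The submitters' processing notes name bcl2fastq 1.8.4, CASAVA 1.8.2 and the build mm9, and the counting program is not given in the sources used here. Starts were raised by 1 base, because row lengths equalled the summed ends minus starts. Depth was taken as the smallest at which short rows (500 bases or less) held whole reads, which gave 24.4 M to 26.7 M reads for ULAs and 19.7 M to 29.6 M reads for DLAs, and read numbers were computed from it.

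Rows averaging 1 RPKM or more were fitted as log2(RPKM + 1) in R 4.3.3 by limma 3.58.1 (lmFit, eBayes with trend), with replicate number and layer as terms, 2-sided, adjusted over all 13999 rows. Fold changes on this scale understate those of low genes. The study's methods pair the layers by brain, and libraries of the same number deviated together (correlation over genes 0.42, 0.33 and 0.34 within numbers and −0.2 to −0.16 across them). Tested on simulated data, the fit missed every change of the smallest size put in, which was larger than any found for the 9 genes. Smaller changes passed in some settings here (Mertk, 0.42 under quantile normalization, and Apoe, 0.32 without brain 2). The simulation therefore does not say why none of the 9 genes passed. Other steps used Python 3.11.15, pandas 2.3.3, numpy 2.4.6, scipy 1.17.1 and matplotlib 3.10.9. Promoter sequences came from RefSeq (GRCm38.p6), matched by symbol, and protein sequences were not used here.

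The 10 genes and the lists were chosen with earlier results of these data known. Named are those genes, the 2 most abundant genes of each pathway list, those past the threshold and the 5 rows most like Mertk. Outside this rule, Elmo3, C1qa, C1qb, C1qc, C4b and single cell type markers were also named, and the rest are marked in the text. Alternatives were no replicate block, no trend, a smaller pseudocount (0.1), no filter or one at 5 RPKM, quantile normalization, median centring, a loess correction for mRNA length (span 0.5) and each brain left out.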

Additional observations from a re-analysis of the deposited data

How the results depend on the processing

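No sign turned for the 9 tested phagocytosis genes in any setting that could be fitted, although Gas6 came to 0.00 without brain 3 and Pros1 to 0.00 without brain 1. The number past the threshold rose from 0 to 1 under quantile normalization (Mertk) and ranged from 0 to 2 with a brain left out. It stayed at 0 without the replicate block, where 23 rows in all passed with ULAs higher and 18 with DLAs higher, against 100 and 128 with it. Towards ULAs, 0.986% of all rows passed under quantile normalization, 0.792% without brain 2 and 3.08% without brain 3. This share was 0.714% with no setting changed. The counts over all rows were 0 and 0 with no filter on low RPKM (limma, with 2799 rows, Mertk and Megf10 among them, at an unadjusted p-value under 0.05), 65 and 79 with no trend, and 85 in DLAs after the length correction. Under quantile normalization they were 138 in ULAs and 103 in DLAs, so the larger count changed sides. With a brain left out they ranged from 96 to 431 in ULAs and from 121 to 695 in DLAs, both highest without brain 3. For the 5 pathway lists, the count in DLAs fell from 1 to 0 without the replicate block, with no filter, under quantile normalization, with no trend and after the length correction, and ranged from 0 to 3 with a brain left out, as did the count in ULAs (Apoe without brain 2, and Ano6, Trio and Abca1 without brain 3). The mean difference in the share of Mertk among the TAM receptors ranged from 0.306 to 3.19 percentage points with a brain left out, and unpaired exact permutation gave p = 0.7. Signs turned for Cd47 under quantile normalization (0.01), for Dock4 and Ctsb after the length correction (−0.03 and −0.06), and with a brain left out for Dock4 (−0.09 to 0.20), Ctsd (−0.01 to 0.13) and Ctsb (−0.05 to 0.14). The cause of these changes was not tested. Tyro3 is not tested at 5 RPKM or more. Leaving out a brain leaves 2 pairs, and Elmo1, at 5 to 66 reads per library, is limited by depth.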
